A study of Mus musculus with 18 samples.

Results

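The mitotic cell-cycle genes are a list of 40 gene symbols that encode the machinery that carries a cell from the G2 phase through chromosome segregation to cell division. A gene was measured by the probesets annotated to its symbol alone, and the brightest probeset by mean over all arrays stood for it. Of the 40 genes, 39 were measured, out of 18194 genes with a probeset of their own symbol. All 39 passed the filter on dim genes, which kept 14505 genes. Ccnb1, which encodes cyclin B1, has no such probeset listed and was not analysed here. Beyond picking the brightest probeset, the rule uses no measured value.

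Marrow RNA was measured in 18 mice of the C57Bl6 strain, with 1 array per mouse. Of these, 6 are labelled CCAT2-GT and have DRAI+ status, 4 are labelled CCAT2-G and 4 CCAT2-T, together the 8 DRAI- mice, and 4 are wild type (WT). CCAT2 is a human long non-coding RNA, and the engineered mice overexpress its G or T form throughout the body. The labels do not spell out what DRAI status means, what drives the transgenes, how many founder lines were used, or the age of the mice, and the title places the work in myeloid malignancy. The cells were flash-frozen whole marrow cells with no sorting named, so fewer dividing cells and less RNA per dividing cell cannot be told apart. Of the marrow's own markers, 18 of 22 erythroid and 13 of 14 late-neutrophil genes passed the filter on dim genes, with list means per mouse of 9.33 to 10.3 and 10.7 to 12.0 on the log2 scale. The filter kept 14505 of 18194 genes, 11 of 13 skeletal muscle and 16 of 18 stroma genes among them, so passing it does not tell one tissue from another.

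Mitosis is driven by Cdk1, a kinase that works with A-type and B-type cyclins and is switched on by Cdc25 phosphatases. Kinetochores then attach chromosomes to spindle microtubules, and the spindle checkpoint holds the anaphase-promoting complex, a ubiquitin ligase, in check until attachment is complete. Many of these genes are transcribed together late in the cycle through promoter elements called CHR and CCAAT, read by the DREAM and B-Myb-MuvB complexes and by NF-Y, and erythroid, granulocytic and B-cell precursors are the marrow's main dividing cells.

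Promoter sequence is shown first as background on these genes, and its part in the pattern between mice described below was not tested. RefSeq promoters of build GRCm38.p6, reaching from 250 bases before to 50 bases after the start of the gene, were found for 35 of the 40 genes. Ccna2, Aurkb, Kif20a, Tpx2 and Cdc25c had none in the table. The CHR element was searched as TTTGAA, or TTCAAA on the other strand, and was present in 27 of 35 promoters (77.1%), against 20.2% of 27025 genes with a promoter in the table. A match with its first base within 30 bases of the start was found in 22 of 35 (62.9%), against 3.72% of all genes, a window chosen after the positions were seen. CCAAT, or ATTGG on the other strand, was in 27 of 35 (77.1%), against 41.1% of all genes, and both elements were in 24 of 35 (68.6%), against 8.97%. The CHR variant TTCGAA was in 3 of 35 promoters, and 5 of the 35 held neither CHR nor CCAAT. A match describes the letters and does not show that a factor binds there.

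In the windows below, from 120 bases before the start to 30 from it, capitals mark CHR and CCAAT matches in either orientation. Cdk1 and Ccnb2 represent the engine of mitosis, Cdc20 the ubiquitin pathway and Kif23 cell division, and Cenpe is a member whose promoter had CCAAT and no CHR.

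Cdk1, chr10:69352883-69353032, minus strand: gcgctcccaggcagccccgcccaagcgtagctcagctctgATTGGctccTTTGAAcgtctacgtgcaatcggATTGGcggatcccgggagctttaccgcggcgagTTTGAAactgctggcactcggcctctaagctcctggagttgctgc

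Ccnb2, chr9:70421525-70421674, minus strand: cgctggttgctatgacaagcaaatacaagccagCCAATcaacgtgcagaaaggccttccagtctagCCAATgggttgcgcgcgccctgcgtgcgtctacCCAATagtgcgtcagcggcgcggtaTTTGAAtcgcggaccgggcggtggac

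Cdc20, chr4:118437314-118437463, minus strand: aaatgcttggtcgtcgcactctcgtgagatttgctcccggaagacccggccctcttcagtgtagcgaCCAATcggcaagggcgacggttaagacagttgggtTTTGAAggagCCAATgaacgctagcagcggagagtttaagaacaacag

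Kif23, chr9:61946770-61946919, minus strand: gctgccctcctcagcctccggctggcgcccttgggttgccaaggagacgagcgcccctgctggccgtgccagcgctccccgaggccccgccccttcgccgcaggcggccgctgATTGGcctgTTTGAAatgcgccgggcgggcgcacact

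Cenpe, chr3:135212443-135212592, plus strand: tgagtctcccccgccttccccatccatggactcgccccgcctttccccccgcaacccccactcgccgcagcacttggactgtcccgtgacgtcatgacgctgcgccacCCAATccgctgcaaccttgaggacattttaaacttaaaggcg

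In Cdc20 the CHR match begins 18 bases before the start, and in Ccnb2 and Kif23 it begins 4 and 2 bases after the start.

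Some arrays stood apart in the spread of their values or in marker genes, and the part of these traits in the level of the mitotic genes was not tested. The interquartile range of the log2 values was 2.90 to 3.07 on 5 arrays, which are 0 CCAT2-GT, 1 CCAT2-G, 2 CCAT2-T and 2 WT mice, and 3.15 to 3.36 on the others. Across the 18 arrays it correlated with the mitotic mean defined below (r = 0.61, Spearman 0.60, and r = 0.45 within the 13 wider arrays). WT replicate 4 was also high for stroma, bone and endothelium genes (1.36 above the mean of 18 mice) and for skeletal muscle genes (1.92 above). By comparison, CCAT2-GT replicates 4 and 6 had stroma values of 1.23 and 2.01 beside mitotic means of -0.03 and 0.01. The mean level of the stroma list over 16 genes ran from 4.21 to 7.65 in CCAT2-GT mice, from 4.23 to 6.53 in DRAI- mice and from 4.73 to 7.00 in WT mice. For skeletal muscle, over 11 genes, it ran from 4.14 to 5.11 in CCAT2-GT, from 4.34 to 6.33 in DRAI- and from 4.48 to 6.66 in WT mice. For erythroid genes, over 18, it ran from 9.41 to 10.3 in CCAT2-GT, from 9.33 to 10.3 in DRAI- and from 9.98 to 10.2 in WT mice. For T and NK cell genes, over 9, it ran from 5.57 to 6.77 in CCAT2-GT, from 5.67 to 6.55 in DRAI- and from 5.64 to 6.42 in WT mice. For B-cell precursors, over 14 genes, it ran from 5.01 to 7.14 in CCAT2-GT, from 5.09 to 8.32 in DRAI- and from 6.34 to 8.18 in WT mice. Xist, the RNA of the inactive X chromosome, was 10.7 to 12.0 on 4 arrays (CCAT2-GT replicates 2, 3 and 5 and CCAT2-T replicate 3) and 3.52 to 4.05 on the other 14. Eif2s3y, a gene of the Y chromosome, was 2.14 to 2.32 on the same 4 arrays and 6.96 to 7.93 on the other 14. By these genes the 4 mice are female and the others male, so the sexes are unevenly spread over the groups. The main fits hold no term for sex, and leaving out these 4 arrays was one of the alternatives run.

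The level of the mitotic genes did not separate the groups in any comparison, while it differed widely between mice of the same group. With limma and Benjamini-Hochberg adjustment over 14505 genes, 0 of 39 genes passed an adjusted p of 0.05 in each of the 6 comparisons made. This held for 0% of all genes in every comparison, so the background share was 0 as well. None of the 39 genes reached an unadjusted p of 0.05 in these fits either, whereas 2.63% of all genes did between CCAT2-GT and WT mice, 1.36% between DRAI- and WT mice and 9.57% between CCAT2-GT and DRAI- mice. The share was 1.57% between CCAT2-G and WT mice, 3.11% between CCAT2-T and WT mice and 6.29% between CCAT2-G and CCAT2-T mice.

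**Figure D1:**
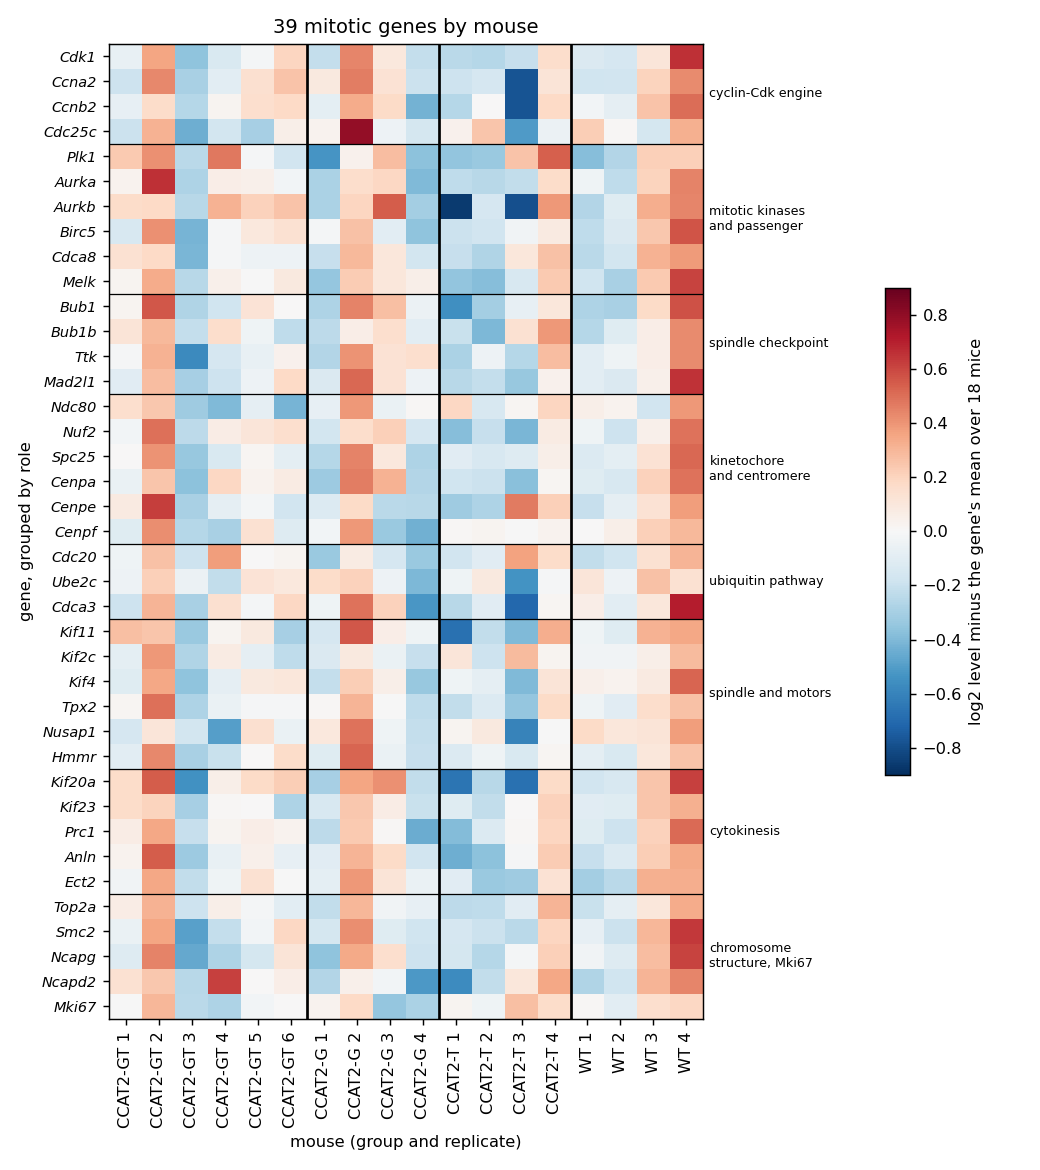
Level of each of the 39 mitotic genes (rows, grouped by role) in each mouse (columns, group and replicate), as the log2 value minus the gene's mean over all 18 mice, with red above and blue below the mean. Whole columns share a colour, as in CCAT2-GT replicate 2, CCAT2-G replicate 2 and WT replicate 4 with 39 of 39 genes above their mean and CCAT2-GT replicate 3 with 0 of 39, and CCAT2-T replicate 3 holds both colours.

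The mean over the 39 genes of each mouse's deviation from the gene means, on the log2 scale, gives the shared level. In CCAT2-GT mice it was 0.00, 0.35, -0.30, -0.03, 0.03 and 0.01 for replicates 1 to 6, with a group mean of 0.01 ± 0.21 (SD, n = 6). In CCAT2-G mice it was -0.16, 0.32, 0.06 and -0.23, and in CCAT2-T mice -0.23, -0.17, -0.19 and 0.16. WT mice had -0.10, -0.12, 0.17 and 0.43. CCAT2-GT replicates 2 and 3 stood at opposite ends of their group, and each group held a mouse below and a mouse above 0. The group means were -0.00 ± 0.25 in CCAT2-G, -0.11 ± 0.18 in CCAT2-T and 0.09 ± 0.26 in WT mice (SD, n = 4 each), all differences smaller than the pooled SD within groups of 0.22. The DRAI- mice together had -0.05 ± 0.21 (SD, n = 8).

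**Figure D2:**
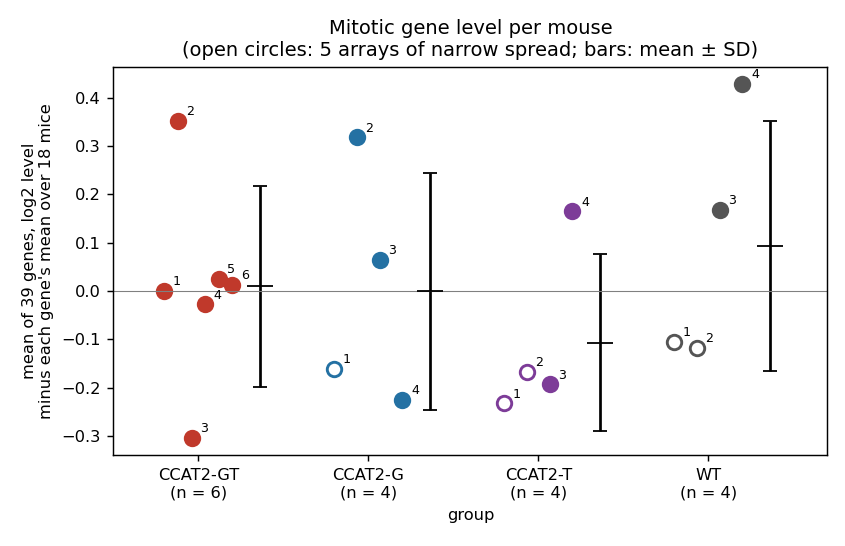
Mean log2 deviation of the 39 mitotic genes (y axis) for each mouse by group (x axis), with replicate numbers beside the points and group means ± SD as bars. The groups overlap, and the 5 open circles, the arrays of narrow interquartile range, lie between -0.23 and -0.10 while the 13 others run from -0.30 to 0.43.

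The genes moved together across mice rather than across groups. Over 741 pairs of genes the median Pearson correlation was 0.68 (Spearman 0.68) and 731 pairs were above 0, against a median of -0.01 over pairs of all genes. The points share each array and its normalization. With the group means removed the median was 0.70, and without the 2 mice farthest from the median it was 0.58. The groups accounted for a median of 13.5% of a gene's variance, against 16.5% for all tested genes, and a gene's range over the 18 mice had a median of 0.98 against 0.86 for all tested genes. CCAT2-GT replicate 2 held the highest value of 8 of the 39 genes, CCAT2-G replicate 2 of 6 and WT replicate 4 of 20. CCAT2-GT replicate 3 held the lowest value of 10 genes, CCAT2-T replicate 3 of 12 and CCAT2-T replicate 1 of 7. Cdca3, a trigger of mitotic entry, had the widest range (1.42) and Top2a, the topoisomerase that untangles sister chromatids, the narrowest (0.57).

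The engine of mitosis showed these mouse-to-mouse differences. Cdk1 had log2 values of 9.08 (lowest), 9.41 (median) and 9.80 (highest) in CCAT2-GT mice, 9.23, 9.89, 9.54 and 9.23 in CCAT2-G mice and 9.20, 9.19, 9.24 and 9.60 in CCAT2-T mice, against 9.32, 9.30, 9.56 and 10.10 in WT mice. Ccna2 had log2 values of 9.73 (lowest), 10.04 (median) and 10.44 (highest) in CCAT2-GT mice, 10.10, 10.48, 10.14 and 9.82 in CCAT2-G mice and 9.83, 9.86, 9.24 and 10.13 in CCAT2-T mice, against 9.84, 9.84, 10.22 and 10.44 in WT mice. Ccnb2 had log2 values of 9.47 (lowest), 9.81 (median) and 9.90 (highest) in CCAT2-GT mice, 9.63, 10.05, 9.89 and 9.30 in CCAT2-G mice and 9.46, 9.72, 8.94 and 9.90 in CCAT2-T mice, against 9.69, 9.64, 9.98 and 10.22 in WT mice. CCAT2-G replicate 2 and WT replicate 4 were high in all 3 genes, CCAT2-T replicate 3 was the lowest mouse for both cyclins, and the groups overlapped for each. Cdc25c, the phosphatase that activates Cdk1, had its highest value in CCAT2-G replicate 2 (7.18) and its lowest in CCAT2-T replicate 3 (5.88). Cdk1 differed by -0.13 between CCAT2-GT and WT mice (SE 0.18) and by -0.18 between DRAI- and WT mice (SE 0.17), both smaller than 1 SD between WT mice (0.37).

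The mitotic kinases and the chromosomal passenger complex include Plk1 and Aurka, which mature centrosomes and build the spindle, and Aurkb and Birc5, 2 subunits of the passenger complex that corrects faulty attachments. Plk1 had log2 values of 8.02 (lowest), 8.37 (median) and 8.73 (highest) in CCAT2-GT mice, 7.73, 8.30, 8.54 and 7.89 in CCAT2-G mice and 7.90, 7.93, 8.52 and 8.80 in CCAT2-T mice, against 7.88, 8.00, 8.47 and 8.47 in WT mice. Aurka had log2 values of 7.78 (lowest), 8.10 (median) and 8.72 (highest) in CCAT2-GT mice, 7.78, 8.22, 8.25 and 7.66 in CCAT2-G mice and 7.83, 7.81, 7.84 and 8.22 in CCAT2-T mice, against 8.02, 7.83, 8.26 and 8.51 in WT mice. Plk1 was high in CCAT2-T replicate 4 and CCAT2-GT replicate 4, and Aurka in CCAT2-GT replicate 2, with groups overlapping. Aurkb had log2 values of 7.74 (lowest), 8.18 (median) and 8.31 (highest) in CCAT2-GT mice, 7.70, 8.18, 8.53 and 7.68 in CCAT2-G mice and 7.13, 7.84, 7.20 and 8.38 in CCAT2-T mice, against 7.73, 7.88, 8.32 and 8.43 in WT mice. Birc5 had log2 values of 9.46 (lowest), 9.92 (median) and 10.29 (highest) in CCAT2-GT mice, 9.86, 10.14, 9.78 and 9.52 in CCAT2-G mice and 9.68, 9.70, 9.84 and 9.96 in CCAT2-T mice, against 9.65, 9.75, 10.12 and 10.44 in WT mice. Aurkb was low in CCAT2-T replicates 1 and 3 and high in CCAT2-G replicate 3, Birc5 was highest in WT replicate 4, and the groups overlapped. Cdca8, the passenger subunit borealin, and Melk, a kinase of dividing progenitors, had ranges of 0.79 and 0.99 over the 18 mice.

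The spindle checkpoint genes delay anaphase until every kinetochore is attached. Bub1b had log2 values of 7.90 (lowest), 8.17 (median) and 8.42 (highest) in CCAT2-GT mice, 7.89, 8.19, 8.28 and 8.04 in CCAT2-G mice and 7.93, 7.72, 8.27 and 8.52 in CCAT2-T mice, against 7.88, 8.02, 8.19 and 8.55 in WT mice. Mad2l1 had log2 values of 9.00 (lowest), 9.23 (median) and 9.58 (highest) in CCAT2-GT mice, 9.17, 9.81, 9.43 and 9.26 in CCAT2-G mice and 9.05, 9.08, 8.96 and 9.34 in CCAT2-T mice, against 9.21, 9.17, 9.34 and 9.95 in WT mice. Both were highest in WT replicate 4, Bub1b was lowest in CCAT2-T replicate 2 and Mad2l1 in CCAT2-T replicate 3. Bub1 and Ttk, checkpoint kinases, had ranges of 1.13 and 1.00. The groups overlapped for all 4 genes.

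At the kinetochore, Ndc80, Nuf2 and Spc25 form the microtubule-binding complex, Cenpa is the centromeric histone, and Cenpe and Cenpf are a motor and a kinetochore-associated protein. Ndc80 had log2 values of 7.07 (lowest), 7.29 (median) and 7.73 (highest) in CCAT2-GT mice, 7.42, 7.88, 7.43 and 7.49 in CCAT2-G mice and 7.68, 7.34, 7.50 and 7.68 in CCAT2-T mice, against 7.54, 7.52, 7.32 and 7.88 in WT mice. Cenpa had log2 values of 9.02 (lowest), 9.44 (median) and 9.64 (highest) in CCAT2-GT mice, 9.06, 9.85, 9.70 and 9.12 in CCAT2-G mice and 9.21, 9.19, 9.02 and 9.40 in CCAT2-T mice, against 9.28, 9.24, 9.60 and 9.88 in WT mice. Ndc80 was lowest in CCAT2-GT replicates 6 and 4, and Cenpa was lowest in CCAT2-T replicate 3 and CCAT2-GT replicate 3. Cenpe had log2 values of 7.94 (lowest), 8.18 (median) and 8.86 (highest) in CCAT2-GT mice, 8.11, 8.40, 7.99 and 7.98 in CCAT2-G mice and 7.92, 7.96, 8.70 and 8.45 in CCAT2-T mice, against 8.03, 8.16, 8.36 and 8.61 in WT mice. Cenpf had log2 values of 8.68 (lowest), 8.87 (median) and 9.39 (highest) in CCAT2-GT mice, 8.95, 9.37, 8.65 and 8.54 in CCAT2-G mice and 8.99, 9.00, 8.98 and 9.01 in CCAT2-T mice, against 8.99, 9.03, 9.19 and 9.27 in WT mice. Cenpe was high in CCAT2-T replicate 3, where the brightest probeset of Cenpa was 0.37 below its mean over 18 mice but another one was 1.06 above, so the place of this mouse for Cenpa depends on the probeset read. Cenpf stayed within 8.98 to 9.01 in the 4 CCAT2-T mice by its brightest probeset. Around their means over 18 mice, its dimmer probesets ran there from -0.54 to -0.20 (mean 6.06) and from -0.19 to 0.15 (mean 5.01). Nuf2 and Spc25 had ranges of 0.91 and 0.86, and the groups overlapped in all 6 genes.

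In the ubiquitin pathway, Cdc20 activates the anaphase-promoting complex and Ube2c is one of its ubiquitin-conjugating enzymes. Cdc20 had log2 values of 9.62 (lowest), 9.82 (median) and 10.18 (highest) in CCAT2-GT mice, 9.47, 9.88, 9.65 and 9.47 in CCAT2-G mice and 9.63, 9.70, 10.16 and 9.97 in CCAT2-T mice, against 9.58, 9.62, 9.94 and 10.11 in WT mice. Ube2c had log2 values of 10.90 (lowest), 11.15 (median) and 11.34 (highest) in CCAT2-GT mice, 11.29, 11.33, 11.08 and 10.73 in CCAT2-G mice and 11.09, 11.22, 10.59 and 11.12 in CCAT2-T mice, against 11.24, 11.08, 11.39 and 11.27 in WT mice. Cdca3 had log2 values of 9.20 (lowest), 9.56 (median) and 9.80 (highest) in CCAT2-GT mice, 9.46, 9.98, 9.70 and 8.97 in CCAT2-G mice and 9.25, 9.39, 8.79 and 9.52 in CCAT2-T mice, against 9.56, 9.40, 9.59 and 10.20 in WT mice. Cdc20 was high in CCAT2-T replicate 3, whereas Ube2c and Cdca3 were lowest there and Cdca3 was highest in WT replicate 4. The groups overlapped for all 3.

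Kif11 pushes spindle poles apart, Tpx2 activates Aurka on the spindle, Nusap1 bundles spindle microtubules and Kif4 is a chromosome-bound motor. Kif11 had log2 values of 7.84 (lowest), 8.22 (median) and 8.44 (highest) in CCAT2-GT mice, 8.02, 8.72, 8.23 and 8.13 in CCAT2-G mice and 7.50, 7.95, 7.77 and 8.50 in CCAT2-T mice, against 8.13, 8.06, 8.48 and 8.52 in WT mice. Tpx2 had log2 values of 8.24 (lowest), 8.51 (median) and 9.01 (highest) in CCAT2-GT mice, 8.53, 8.82, 8.51 and 8.29 in CCAT2-G mice and 8.29, 8.40, 8.17 and 8.69 in CCAT2-T mice, against 8.48, 8.42, 8.67 and 8.78 in WT mice. Kif11 was lowest in CCAT2-T replicate 1 and Tpx2 in CCAT2-T replicate 3. Nusap1 had log2 values of 9.32 (lowest), 9.71 (median) and 9.96 (highest) in CCAT2-GT mice, 9.91, 10.31, 9.78 and 9.60 in CCAT2-G mice and 9.84, 9.91, 9.21 and 9.81 in CCAT2-T mice, against 9.98, 9.92, 9.93 and 10.19 in WT mice. Kif4 had log2 values of 7.63 (lowest), 8.00 (median) and 8.34 (highest) in CCAT2-GT mice, 7.78, 8.22, 8.05 and 7.65 in CCAT2-G mice and 7.96, 7.91, 7.60 and 8.11 in CCAT2-T mice, against 8.04, 8.03, 8.07 and 8.52 in WT mice. Nusap1 was lower in all 4 CCAT2-T mice than in all 4 WT mice, at 9.91 in the highest CCAT2-T mouse against 9.92 in the lowest WT mouse, and was the only one of the 39 genes whose groups did not overlap there, beside 1.69% of all genes. Its difference between CCAT2-T and WT mice of -0.32 (SE 0.17) had an adjusted p of 0.928 with limma. Kif2c, a microtubule depolymerase, and Hmmr, a spindle-associated protein, had ranges of 0.66 and 0.81.

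The genes of cell division are Prc1, which crosslinks the midzone, Anln, which scaffolds the contractile ring, Ect2, the activator of RhoA at the furrow, and the midzone motors Kif20a and Kif23. Prc1 had log2 values of 8.56 (lowest), 8.81 (median) and 9.12 (highest) in CCAT2-GT mice, 8.53, 9.01, 8.78 and 8.32 in CCAT2-G mice and 8.38, 8.65, 8.78 and 8.96 in CCAT2-T mice, against 8.66, 8.58, 8.98 and 9.28 in WT mice. Anln had log2 values of 8.49 (lowest), 8.81 (median) and 9.37 (highest) in CCAT2-GT mice, 8.72, 9.13, 9.00 and 8.65 in CCAT2-G mice and 8.39, 8.45, 8.81 and 9.05 in CCAT2-T mice, against 8.62, 8.70, 9.04 and 9.17 in WT mice. Ect2 had log2 values of 8.04 (lowest), 8.24 (median) and 8.61 (highest) in CCAT2-GT mice, 8.17, 8.65, 8.38 and 8.20 in CCAT2-G mice and 8.16, 7.93, 7.94 and 8.39 in CCAT2-T mice, against 7.95, 8.01, 8.58 and 8.58 in WT mice. Anln was highest in CCAT2-GT replicate 2 and lowest in CCAT2-T replicate 1, and Prc1 was highest in WT replicate 4. Kif20a had log2 values of 7.02 (lowest), 7.73 (median) and 8.11 (highest) in CCAT2-GT mice, 7.27, 7.92, 7.98 and 7.34 in CCAT2-G mice and 6.91, 7.31, 6.89 and 7.74 in CCAT2-T mice, against 7.39, 7.42, 7.82 and 8.18 in WT mice. Its lowest values were in CCAT2-T replicates 3 and 1, and its highest in WT replicate 4, with overlapping groups. Kif23 had a range of 0.61.

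Condensin subunits Smc2, Ncapd2 and Ncapg compact chromosomes and Mki67 coats their surface. Top2a had log2 values of 10.23 (lowest), 10.43 (median) and 10.72 (highest) in CCAT2-GT mice, 10.19, 10.71, 10.38 and 10.34 in CCAT2-G mice and 10.18, 10.18, 10.31 and 10.71 in CCAT2-T mice, against 10.21, 10.33, 10.51 and 10.75 in WT mice. Smc2 had log2 values of 9.33 (lowest), 9.78 (median) and 10.18 (highest) in CCAT2-GT mice, 9.66, 10.24, 9.72 and 9.65 in CCAT2-G mice and 9.67, 9.63, 9.58 and 10.01 in CCAT2-T mice, against 9.75, 9.63, 10.12 and 10.46 in WT mice. Mki67 had log2 values of 11.54 (lowest), 11.80 (median) and 12.11 (highest) in CCAT2-GT mice, 11.85, 11.99, 11.46 and 11.53 in CCAT2-G mice and 11.84, 11.78, 12.08 and 11.98 in CCAT2-T mice, against 11.82, 11.72, 11.96 and 12.00 in WT mice. Smc2 and Top2a were highest in WT replicate 4, and Mki67 was highest in CCAT2-GT replicate 2 and lowest in CCAT2-G replicate 3. Ncapd2 had log2 values of 7.90 (lowest), 8.25 (median) and 8.76 (highest) in CCAT2-GT mice, 7.89, 8.19, 8.12 and 7.63 in CCAT2-G mice and 7.58, 7.92, 8.25 and 8.49 in CCAT2-T mice, against 7.87, 7.97, 8.45 and 8.59 in WT mice. Ncapg had log2 values of 7.21 (lowest), 7.54 (median) and 8.12 (highest) in CCAT2-GT mice, 7.31, 8.01, 7.83 and 7.49 in CCAT2-G mice and 7.51, 7.42, 7.65 and 7.89 in CCAT2-T mice, against 7.64, 7.56, 7.95 and 8.28 in WT mice. Ncapd2 was highest in CCAT2-GT replicate 4 and lowest in CCAT2-T replicate 1. The groups overlapped for these genes.

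Between CCAT2-GT and WT mice the median difference of the 39 genes was -0.10, with 6 higher and 33 lower, while 49.5% of all genes were higher and 50.5% lower. The median of all tested genes lay between -0.0072 and 0.0113 in the 6 comparisons. The 3 genes of smallest p were Nusap1 (-0.29, SE 0.16), Ndc80 (-0.21, SE 0.15) and Ncapg (-0.26, SE 0.18), each with an adjusted p of 1.00 in limma. Groups did not overlap for 0 genes, against 0.751% of all genes, and the 95% interval lay within 1.5-fold for 34 of 39. With array weights 456 genes (3.14%) passed the adjusted threshold in this comparison and 0 of the 39 did. The median turned to 0.05 with those weights and to 0.04 without WT replicate 4, and was -0.29 without the 5 arrays of narrow range. That last fit leaves only WT replicates 3 and 4 in the WT group, whose mitotic means were 0.17 and 0.43. The weights of the 3-group fit lean the other way, at 2.38 and 4.50 for WT replicates 1 and 2, whose mitotic means were -0.10 and -0.12. They were 0.51 and 0.38 for WT replicates 3 and 4.

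Between DRAI- and WT mice 0 genes had a difference above 0 and 39 had one below 0, with a median of -0.15, beside 50.2% of all genes above and 49.8% below 0. The 3 of smallest p were Kif4 (-0.25, SE 0.14), Cdca3 (-0.31, SE 0.19) and Ccnb2 (-0.27, SE 0.17), each with an adjusted p of 0.999 in limma. Groups did not overlap for 0 genes, against 0.0620% of all genes, and 33 intervals lay within 1.5-fold. Since the genes move together, the 39 signs are not 39 independent observations. The median was -0.02 without WT replicate 4, and with array weights it turned to 0.03, with 25 genes higher and 14 lower.

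Between CCAT2-GT and DRAI- mice the median was 0.07, with 30 genes higher and 9 lower, beside 48.3% of all genes higher and 51.7% lower. Of smallest p, Ncapd2 differed by 0.27 (SE 0.16, adjusted p = 0.563 in limma), Ndc80 by -0.20 (SE 0.13, adjusted p = 0.569) and Aurkb by 0.31 (SE 0.20, adjusted p = 0.588). Groups did not overlap for 0 genes, against 0.0965% of all genes, and 36 intervals lay within 1.5-fold. The median was -0.0025 without CCAT2-GT replicate 2 and -0.04 without the 5 narrow arrays.

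Set by allele, CCAT2-G minus WT had a median of -0.09 (7 higher and 32 lower, beside 53.2% and 46.8% of all genes) and CCAT2-T minus WT of -0.20 (3 higher and 36 lower, beside 50.5% and 49.5%). All comparisons with WT share its 4 mice. In CCAT2-G against WT mice the smallest p were those of Kif4 (-0.24, SE 0.17), Cenpf (-0.24, SE 0.17) and Cdc20 (-0.19, SE 0.16), each with an adjusted p of 1.00 in limma. In CCAT2-T against WT mice they were those of Cdca3 (-0.45, SE 0.22), Kif20a (-0.49, SE 0.25) and Ccnb2 (-0.38, SE 0.20), each with an adjusted p of 0.928 in limma, and 19 of 39 intervals lay within 1.5-fold. The 95% interval of Cdca3 ran from -0.91 to 0.0014. Between CCAT2-G and CCAT2-T mice the median was 0.10, with 30 genes higher and 9 lower, beside 49.4% of all genes higher and 50.6% lower. Ccna2 (0.37, SE 0.20, adjusted p = 0.781 in limma), Mad2l1 (0.31, SE 0.18, adjusted p = 0.789) and Kif20a (0.42, SE 0.25, adjusted p = 0.791) had the smallest p. The direction for Ccna2 depends on the probeset read. Its brightest probeset stood at -0.78 around its mean in CCAT2-T replicate 3, where its other probeset (mean 9.65) stood at 0.17. Around its own mean, that other probeset was at -0.08, 0.25, -0.28 and -0.24 in CCAT2-G mice. In CCAT2-T mice it was at -0.01, -0.05, 0.17 and 0.14, so it was higher there on average. Groups did not overlap for 0 genes in CCAT2-G against WT and in CCAT2-G against CCAT2-T mice, beside 0.882% and 2.29% of all genes. The median of CCAT2-G minus WT was 0.15 with array weights and 0.03 without WT replicate 4, and that of CCAT2-G minus CCAT2-T was -0.03 without CCAT2-G replicate 2.

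The split by role is given for CCAT2-T minus WT alone, the comparison with the largest median, and 0 genes were called in each role. Since the genes move together, the roles are not independent observations. Over all 39 genes the median was -0.20, and it was -0.08 without WT replicate 4. The median was -0.29 for the 4 cyclin-Cdk genes (0 higher, 4 lower), -0.24 for the 3 ubiquitin-pathway genes (1 higher, 2 lower), -0.23 for the 6 spindle genes (0 higher, 6 lower) and -0.21 for the 4 checkpoint genes (0 higher, 4 lower). It was -0.21 for the 6 kinase and passenger genes (1 higher, 5 lower), -0.18 for the 5 cell-division genes (0 higher, 5 lower), -0.16 for the 6 kinetochore genes (0 higher, 6 lower) and -0.16 for the 5 genes of chromosome structure and Mki67 (1 higher, 4 lower). The 3 genes higher in CCAT2-T than in WT mice were Plk1 (0.08, SE 0.23), Cdc20 (0.05, SE 0.16) and Mki67 (0.04, SE 0.14), none of them called. For Cdc20 the direction depends on the probeset read. Around its own mean, its next brightest probeset (mean 8.93) was at -0.36, -0.05, -0.83 and 0.25 in CCAT2-T mice. In WT mice it was at -0.07, -0.05, 0.08 and 0.42. Its dimmest probeset (mean 6.31) was at -0.39, -0.58, -0.22 and 0.49 in CCAT2-T mice. In WT mice it was at -0.20, -0.39, 0.41 and 0.42, so both were lower on average in CCAT2-T mice.

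Without the 5 narrow arrays the median of the 39 genes was -0.29 for DRAI- minus WT, -0.24 for CCAT2-G minus WT, -0.36 for CCAT2-T minus WT and 0.11 for CCAT2-G minus CCAT2-T mice, each over fewer mice, and 0 genes passed the adjusted threshold. The WT group then held replicates 3 and 4 alone. With the 5 arrays as a block in the fit, it was -0.22 for CCAT2-GT minus WT, -0.18 for DRAI- minus WT, -0.06 for CCAT2-GT minus DRAI-, -0.17 for CCAT2-G minus WT, -0.20 for CCAT2-T minus WT and 0.04 for CCAT2-G minus CCAT2-T mice. Within the 5 narrow arrays alone it was -0.09 for DRAI- minus WT.

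**Figure D3:**
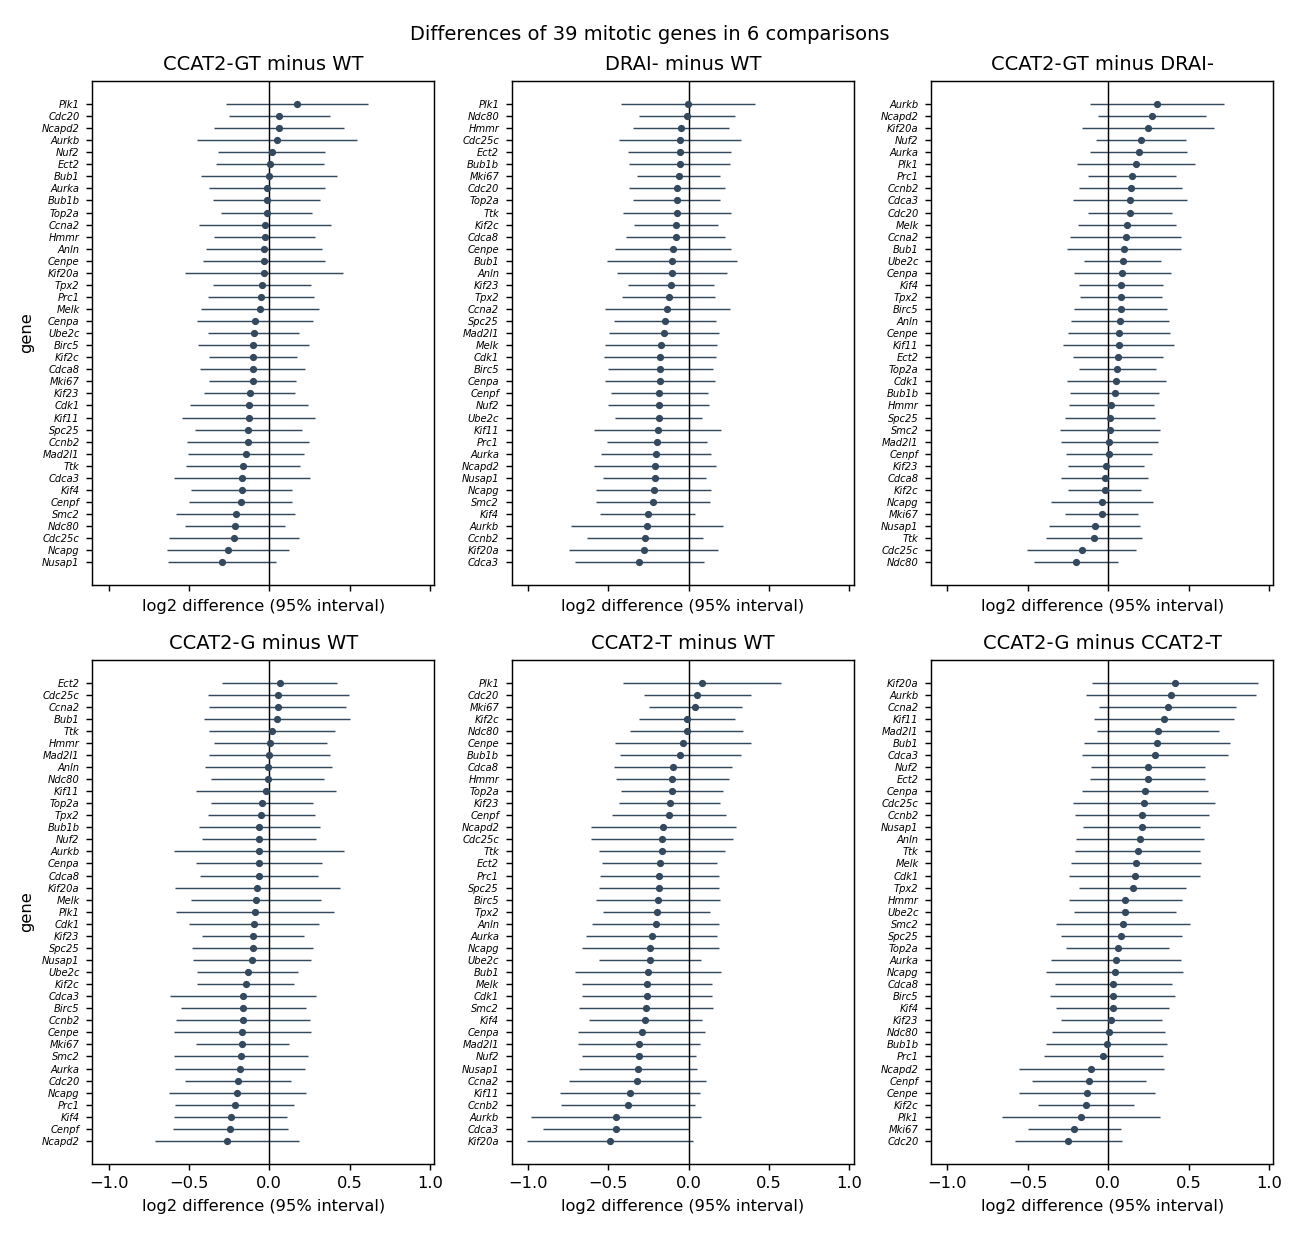
Differences of the 39 mitotic genes (rows, sorted in each panel) on the log2 scale, first group minus second, with 95% intervals from limma, in 6 comparisons. Every interval covers 0, and all 39 points lie below 0 for DRAI- minus WT with a median of -0.15.

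Related lists of the cell cycle were measured in the same fits, with 0 genes past an adjusted p of 0.05 in each. Of 33 G1/S and replication genes, 25 were lower between CCAT2-GT and WT mice (median -0.10) and 31 between DRAI- and WT mice (median -0.13). Rfc3, a subunit of the clamp loader of replication, differed by -0.64 between CCAT2-T and WT mice (SE 0.21). E2f2, of the same list, differed by -0.41 between CCAT2-GT and WT mice (SE 0.13, adjusted p = 0.9999 with limma). Of 18 genes for the transcription control of mitosis, 13 were lower between CCAT2-GT and WT mice (median -0.07). E2f4, a repressor E2F of the DREAM complex, differed by -0.37 between CCAT2-GT and DRAI- mice (SE 0.10, adjusted p = 0.456 with limma). Tfdp2 differed by -0.51 between CCAT2-GT and WT mice (SE 0.20). Of 17 genes of the anaphase-promoting complex and its regulators 13 were lower between CCAT2-GT and WT mice (median -0.07), of 29 other kinetochore genes 22 (median -0.07) and of 36 other spindle and cytokinesis genes 26 (median -0.05). Zwint, a kinetochore scaffold protein, differed by -0.63 between CCAT2-T and WT mice (SE 0.24). Among 18 genes that brake the cycle, 9 were higher and 9 lower between CCAT2-GT and WT mice (median -0.01).

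Across the 18 mice the list means followed the mitotic mean to different degrees, given as descriptions since all values come from the same arrays. Pearson's r was 0.96 for other kinetochore genes (Spearman 0.96), 0.96 for other spindle and cytokinesis genes (Spearman 0.94) and 0.94 for G1/S genes (Spearman 0.92). It was 0.75 for the transcription control list (Spearman 0.73), 0.40 for brakes (Spearman 0.53), 0.49 for erythroid genes (Spearman 0.50) and -0.70 for T and NK cell genes (Spearman -0.72). Without the 2 mice farthest from the median of each list, r was 0.90 for G1/S, 0.48 for erythroid and -0.74 for T and NK genes. For B-cell precursor genes r was -0.44, and within the 13 arrays of wider range it was -0.23, while for erythroid genes it was 0.76 there. It was 0.82 for the anaphase-promoting complex list (Spearman 0.78), 0.48 for granulocyte-monocyte precursor genes (Spearman 0.51), 0.14 for late neutrophil genes (Spearman 0.25), 0.21 for stroma genes (Spearman 0.08) and 0.27 for muscle genes (Spearman 0.03). Within the 13 wider arrays r was 0.60 for muscle genes (Spearman 0.53), 0.31 for granulocyte-monocyte precursor genes, 0.28 for brakes, 0.26 for stroma genes and 0.06 for late neutrophil genes.

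**Figure D4:**
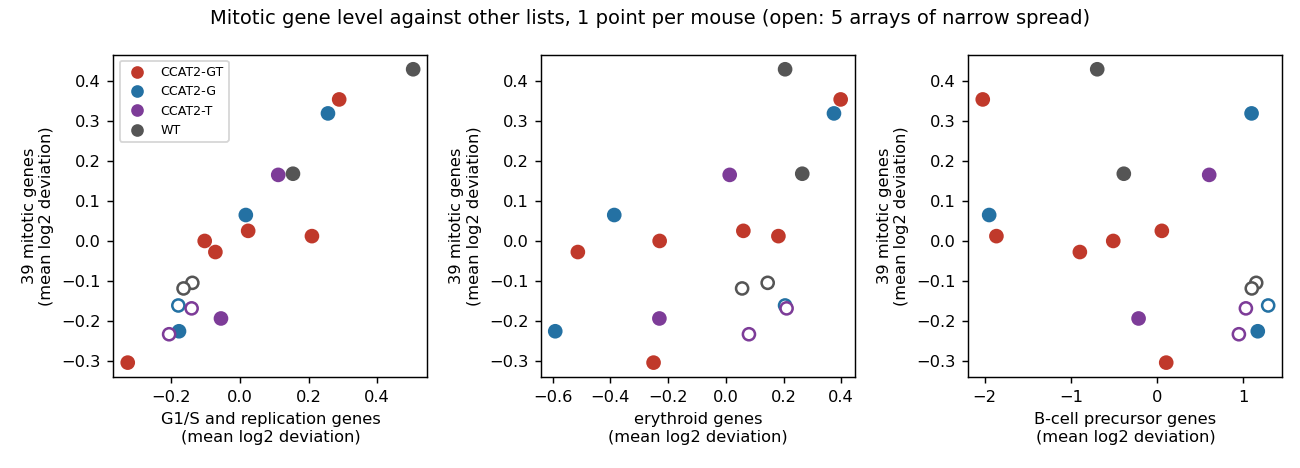
Mean log2 deviation of the 39 mitotic genes (y axis) against that of 3 other lists (x axis), 1 point per mouse coloured by group, with open circles for the 5 arrays of narrow range. Points follow a line for G1/S and replication genes (r = 0.94) and scatter for erythroid (r = 0.49) and B-cell precursor genes (r = -0.44).

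In CCAT2-T replicate 3 the mitotic genes disagreed among themselves more than in the other mice. The SD of its 39 deviations was 0.33, against 0.09 to 0.22 in the other 17 mice. Over all tested genes the SD was 0.38 in this mouse. It was 0.40 in CCAT2-GT replicate 4, 0.47 in CCAT2-GT replicate 6 and 0.21 to 0.37 in the others. Aurkb (-0.79), Ccna2 (-0.78), Ccnb2 (-0.78) and Cdca3 (-0.71) were low there, and Cenpe (0.47), Cdc20 (0.36) and Kif2c (0.29) were high. Different probesets of the same gene disagreed as well. For Cdc20 the brightest probeset stood at 0.36 and another at -0.83, for Cenpa, the widest gap, at -0.37 and at 1.06, for Kif2c at 0.29 and at -0.98, for Ccna2 at -0.78 and at 0.17, and the 5 probesets of Hmmr ran from -1.17 to 0.02. For Cenpe both probesets were high (0.47 and 0.68). Over the 26 genes with several probesets, the median gap between a gene's highest and lowest probeset was 0.57 in this mouse and 0.12 to 0.28 in the others, and 11 of the 26 genes had their widest gap in it. Gaps were not measured for genes outside the list, so whether this trait is particular to the mitotic genes was not tested. The median CCAT2-T minus WT difference was -0.17 without it.

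**Figure D5:**
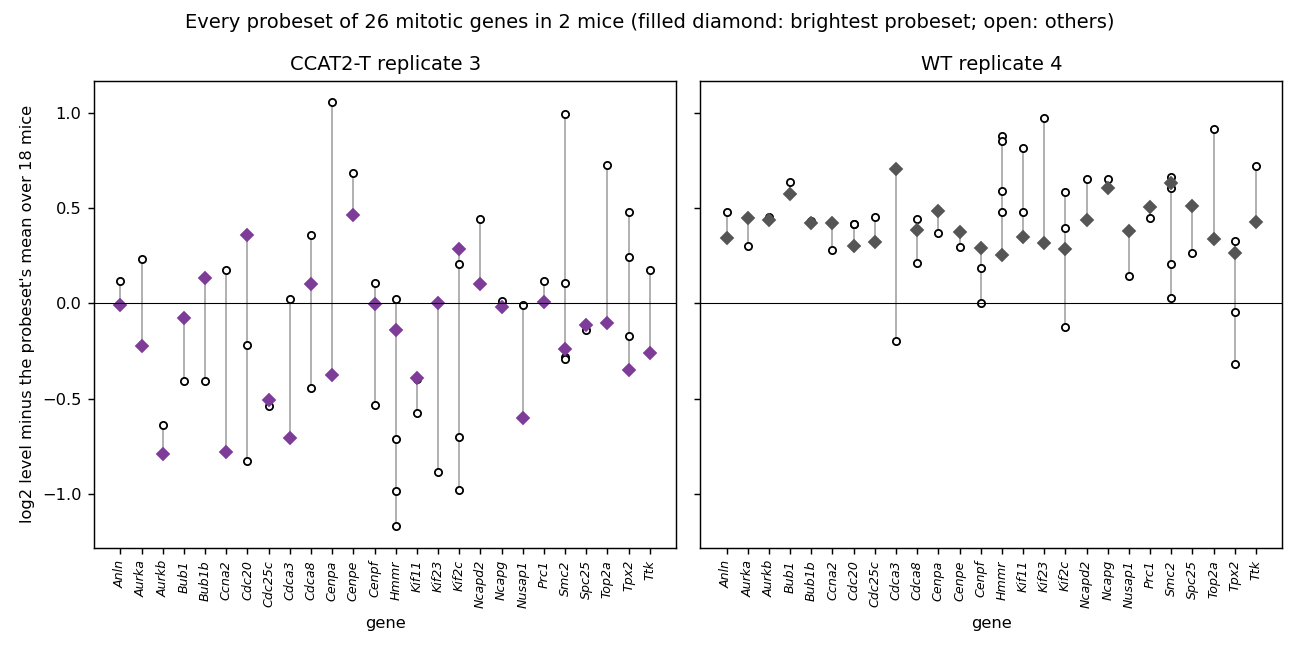
Level of every probeset of the 26 mitotic genes with several probesets above the filter (x axis) in CCAT2-T replicate 3 and WT replicate 4, as log2 value minus that probeset's mean over 18 mice, with filled diamonds for the brightest probeset. In CCAT2-T replicate 3 probesets of a gene spread widely, with a median gap of 0.57, while in WT replicate 4 most lie above 0 and the median gap is 0.22.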

How the data were processed

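Total RNA of flash-frozen marrow cells was extracted with Trizol and hybridised as biotin-labelled cRNA to Affymetrix arrays, per the labels' protocols. The authors deposited log2 values for 45101 probesets on 18 arrays, made with RMA per the submitters' processing notes. RMA is a background correction, quantile normalization and summary per probeset whose version, software and probe definition file were not given in the sources used here. Deposited log2 values ran from 1.56 to 14.2 and arrays correlated at 0.955 to 0.996, with 0 identical pairs. Arrays have no read depth, so their number limits the precision.

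Of the probesets, 34958 had 1 gene symbol in the platform annotation, 932 had several and 9211 none listed, and genes were taken from the first kind. Genes with a mean below the 30th percentile of probeset means (3.30) were left out. Differences, first group minus second, came from limma's lmFit and eBayes (trend set) over the whole series of 18 arrays, in a model of 3 groups (CCAT2-GT, DRAI-, WT) or of 4 groups by allele (limma 3.58.1, R 4.3.3), two-sided, with Benjamini-Hochberg adjustment over 14505 genes and a threshold of 0.05. The procedure was tested on simulated data. P-values measure the spread between these mice, which the titles call biological replicates. Replicate numbers are taken from the titles, which name no shared animal, litter or day, and whether they mark one is not known.

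The members and all lists were chosen with earlier results of these data known, and no list was tested as a set. Named were a set of members by role, the 3 of smallest p in each comparison, those of widest and narrowest range and 2 genes of smallest p per list, some of which are not printed. Alternatives were median centring, quantile normalization, no filter or one at the 50th percentile, averaged probesets per gene, a robust eBayes or one lacking the trend, array weights, only the groups compared, the replicate block, leaving out each mouse or sets of arrays, and the 5 narrow arrays as a block. The fit within the 5 narrow arrays and the reading of every probeset in CCAT2-T replicate 3 were chosen after seeing the data. Promoters are RefSeq's for GRCm38.p6.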

Additional observations from a re-analysis of the deposited data

Results flagged for a closer look

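In groups of 4 to 8 mice, 9 of 200 tests found the highest or lowest mouse far from its nearest neighbour by Dixon's criterion, and chance alone marks about 1 in 20 groups. Aurka stood high in CCAT2-GT replicate 2 (8.72, next 8.12) and Aurkb low in CCAT2-GT replicate 3 (7.74, next 8.15). Smc2 was high in CCAT2-G replicate 2 (10.24, next 9.72), and Hmmr was high in the same mouse among the 8 DRAI- mice (8.54, next 8.04). CCAT2-T replicate 4 stood above its group in the mean of the 39 genes (0.165, next -0.168), in Cdk1 (9.60, next 9.24) and in Aurka (8.22, next 7.84). Nusap1 was low in CCAT2-T replicate 3 (9.21, next 9.81), the mouse whose probesets disagreed, and Kif4 was high in WT replicate 4 (8.52, next 8.07).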

How the results depend on the processing

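Under every alternative run, 0 of the 39 mitotic genes passed the adjusted threshold in the 6 comparisons, and of the 6 medians one moved by more than the spread between mice: CCAT2-G minus WT was 0.15 with array weights, against -0.09. Leaving out 1 mouse at a time, the median ran from -0.16 to 0.04 for CCAT2-GT minus WT, -0.22 to -0.02 for DRAI- minus WT, -0.0025 to 0.13 for CCAT2-GT minus DRAI-, -0.18 to 0.03 for CCAT2-G minus WT, -0.30 to -0.08 for CCAT2-T minus WT and -0.03 to 0.18 for CCAT2-G minus CCAT2-T. Array weights also turned CCAT2-GT minus WT to 0.05 and DRAI- minus WT to 0.03. In that fit WT replicates 1 and 2 had weights of 2.38 and 4.50, and replicates 3 and 4 of 0.51 and 0.38. Between CCAT2-GT and WT mice 456 of 14505 genes (3.14%) then passed, none of them mitotic, against 0 without weights. The cause was not tested. With the replicate number as a block the medians were -0.08, -0.15, 0.04, -0.09, -0.20 and 0.10 in that order. Correlations between mice of different groups were taken over all tested genes, with each gene's group means removed. Same-numbered mice then correlated at -0.36 to 0.67 (median 0.09, against -0.07 for other pairs), with 11 of 24 pairs over 0.1. For 6 of the 16 mice with a same-numbered partner, the best match in another group had the same number. The 5 narrow arrays are all replicate 1 or 2 of their groups. These values cannot tell whether the numbers mark a shared batch or litter. At an unadjusted p of 0.05, the highest counts of mitotic genes over the repeats were 9 of 39, all higher, for CCAT2-G minus CCAT2-T with array weights, where 2753 of 14505 genes passed, and 6 of 39, all lower, for CCAT2-T minus WT without CCAT2-T replicate 4, where 1165 of 14505 did. Over all genes, the adjusted count also left 0 within the 5 arrays of narrow range, at 9 genes for CCAT2-G minus WT and 8 for CCAT2-G minus CCAT2-T (each a single CCAT2-G mouse against 2 mice, assumed to vary like the other groups), without CCAT2-G replicate 3, at 7 for CCAT2-GT minus DRAI-, and at 1 for CCAT2-G minus CCAT2-T with quantile normalization, with the filter at the 50th percentile and without CCAT2-T replicate 1. Counted over each gene under each alternative, the sign differed from the reported one in 600 cases and did not in 5172, and none was called.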
